A study of Mus musculus with 4 samples.

Results

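The circadian clock and PAR bZIP genes described here are 10 listed mouse genes: Clock, Per1, Per2, Per3, Cry2, Nr1d1, Nr1d2, Bhlhe40, Dbp and Tef. They were found by matching the Ensembl gene identifiers of the deposited tables to these symbols in GENCODE M21; this matching used no measured value, but the genes themselves were chosen with earlier results of these data known. Of the 10 genes, 6 had rows in the tables, with 12 rows in all, among 37363 rows of 19284 gene identifiers. Each row is an expression value of a transcript model, given without a transcript identifier, and is called a model below. No row existed for Nr1d1, Per1, Per2 or Cry2.

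Total RNA of mouse primary hepatocytes, the liver's main parenchymal cells, was profiled by lncRNA-seq with NEAA (non-essential amino acids, which animal cells can make themselves) or without them. There were 2 NEAA samples and 2 control samples, and the series asked how NEAA act on long non-coding RNAs. Strain, sex, age, NEAA dose, treatment time, clock time of collection and any synchronisation of the cells are not stated in the labels used here. The labels do not say if samples of a group were separate animals or cultures, and the spread behind the p-values may therefore be technical.

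The mammalian clock is a transcriptional loop. CLOCK and its partner BMAL1 bind E-box sequences and activate the Per and Cry genes, whose proteins then repress CLOCK and BMAL1. A linked loop runs through the nuclear receptors REV-ERB alpha and beta (Nr1d1 and Nr1d2), which repress the gene of BMAL1, and BHLHE40 (DEC1) represses at E-boxes. In liver the loop drives DBP and TEF, transcription factors of the PAR bZIP family, which bind D-box sequences and control genes of drug and lipid metabolism.

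By their number, the rows of these genes matched annotated retained-intron transcripts, which left none over for their spliced mRNAs. For each of the 10 genes the number of rows equalled the number of transcripts that GENCODE M21 annotates as retained-intron RNA, 2 each for the 6 genes with rows and 0 for the 4 without. Over all protein-coding genes of that annotation, 151 of 12832 genes without a retained-intron transcript had a row, against 9114 of 9119 genes with one. The missing rows of Nr1d1, Per1, Per2 and Cry2 therefore give no information on whether these genes were expressed. Which row belongs to which transcript could not be told, so the models of a gene are called the higher and the lower model by their mean FPKM (fragments per kilobase of transcript, scaled to the mapped library size) over the 4 samples.

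The 12 annotated retained-intron transcripts run across an exon boundary into an intron and start or end there. The share of their bases outside the exons of the gene's protein-coding transcripts went from 10.3% in Per3-202 to 87.7% in Clock-203. For Nr1d2 (GRCm38 chromosome 14, 18204054 to 18239127, minus strand), Nr1d2-203 is 687 bases long with 408 outside those exons, and Nr1d2-202 is 1680 bases long with 338 outside. For Bhlhe40 (chromosome 6, 108660629 to 108666925, plus strand), Bhlhe40-204 is 2620 bases long with 1433 outside, and Bhlhe40-203 is 368 bases long with 104 outside. Reads from the remaining bases can come from mRNA as well.

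The boundary sequences of these 4 transcripts are shown because Nr1d2 and Bhlhe40 were the genes whose NEAA and control values did not overlap. Each is 60 bases of the GENCODE transcript, 5′ to 3′, with 30 bases on each side of the exon boundary that a spliced mRNA would join elsewhere, and capitals mark the intron's own first or last pair of bases.
Nr1d2-203, from intron into coding exon, chr14:18211935-18211994, minus strand: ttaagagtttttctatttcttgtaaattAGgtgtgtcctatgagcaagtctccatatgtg
Nr1d2-202, from coding exon into intron, chr14:18214844-18214903, minus strand: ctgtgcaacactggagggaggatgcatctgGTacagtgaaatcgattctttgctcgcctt
Bhlhe40-203, from coding exon into intron, chr6:108661201-108661260, plus strand: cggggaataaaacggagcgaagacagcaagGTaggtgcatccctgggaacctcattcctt
Bhlhe40-204, from intron into coding exon, chr6:108664449-108664508, plus strand: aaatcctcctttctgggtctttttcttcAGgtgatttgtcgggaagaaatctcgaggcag
All 4 carry the GT or AG that borders an intron. An RNA fragment that covers such a boundary comes from a molecule not spliced at that boundary, whereas a fragment within the exon part does not tell the forms apart. The transcripts Dbp-205 and Dbp-202 share their boundary, at chr7:45708230-45708289 on the plus strand:
Dbp-205 and Dbp-202, from intron into coding exon: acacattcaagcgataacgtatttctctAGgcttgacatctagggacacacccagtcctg
The assignment of fragments between this pair of Dbp transcripts rests on their unshared ends.

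**Figure D1:**
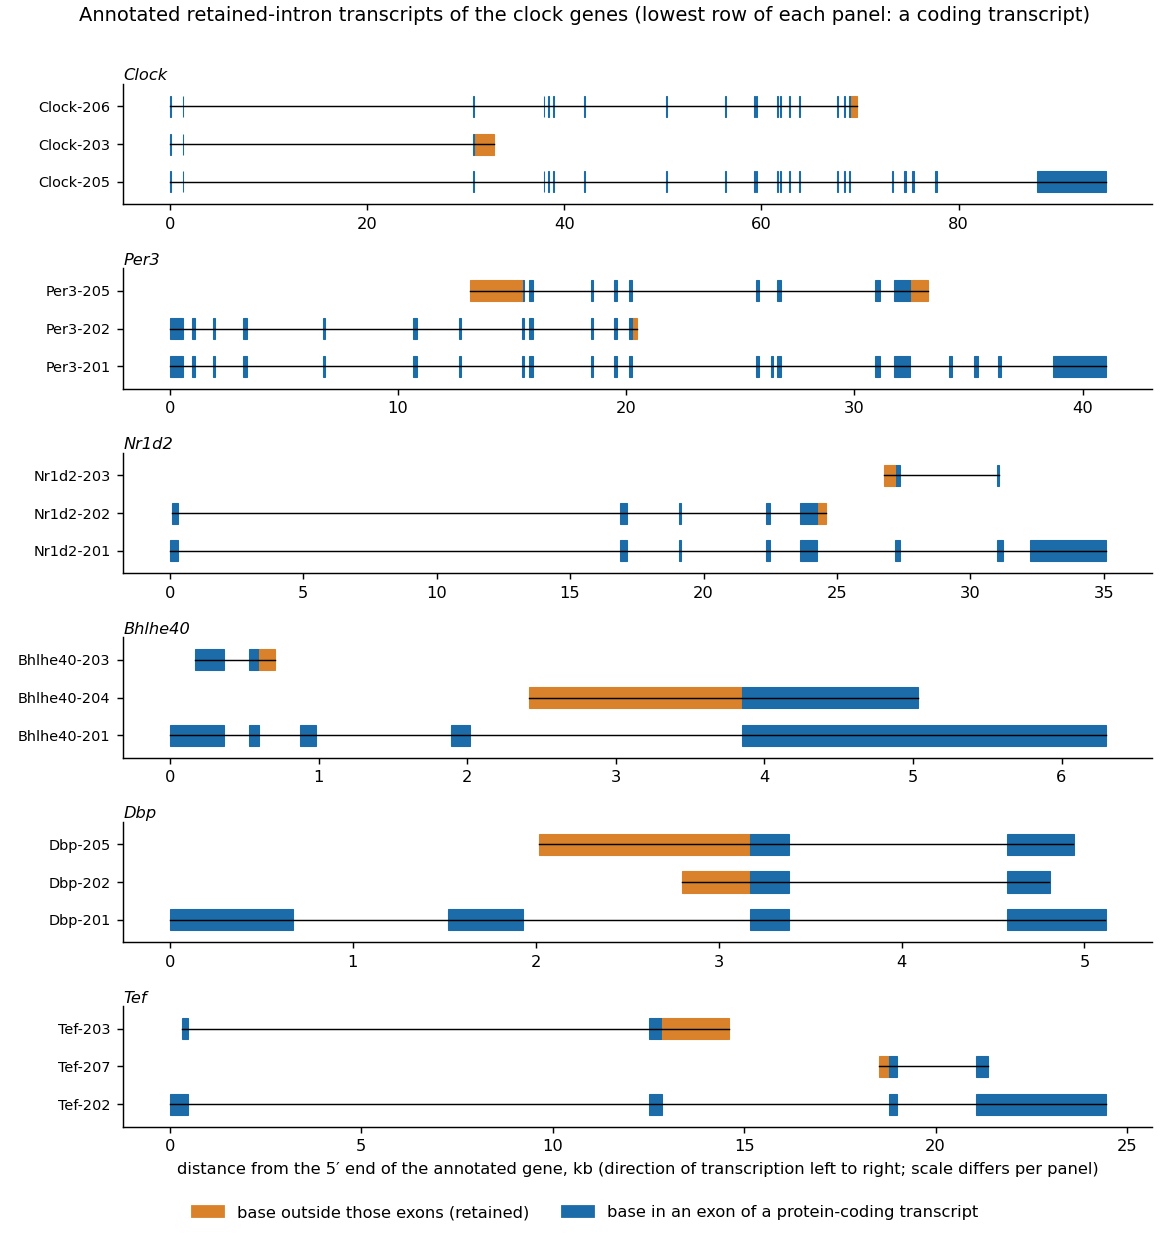
Annotated retained-intron transcripts of Clock, Per3, Nr1d2, Bhlhe40, Dbp and Tef, with a protein-coding transcript in the lowest row of each panel; the x axis is the distance from the 5′ end of the gene in kb. Boxes are exons, blue where the base lies in an exon of a protein-coding transcript and orange where it does not; in each of the 12 retained-intron transcripts an orange stretch adjoins a blue one.

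Before testing, models were required to reach a mean of 1 FPKM over the 4 samples, which 6064 models of the whole series did. Of the 12 clock models, 7 reached it: both of Nr1d2, Bhlhe40 and Tef and 1 of Clock. The nearest to that limit were the lower model of Bhlhe40, with a mean of 1.45 FPKM, above it, and the lower model of Clock, with 0.973, under it. With NEAA, none of the 7 tested models passed an adjusted p under 0.05 in limma, a linear model that pools the spread over all models, and 1 had an unadjusted p under 0.05. Across all tested models 2.90% were called, 1.95% higher and 0.956% lower in NEAA, and 25.9% had an unadjusted p under 0.05.

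The 7 tested clock models had a median log2 fold change of -0.30 (NEAA minus control, on log2(FPKM + 1)), against -0.09 over all tested models. Of the 7, 6 had a negative log2 fold change, as did 58.9% of all tested models. In 4 of the 7 both NEAA samples lay below both control samples, which held for 36.0% of all tested models. These 4 were the models of Nr1d2 and Bhlhe40, and no clock model had both NEAA samples above both controls, against 22.8% of all tested models.

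Nr1d2 codes for REV-ERB beta, a repressor in the second loop of the clock. Its lower model had 2.08 and 1.64 FPKM in the NEAA samples, against 3.38 and 3.57 FPKM in the control samples. Both NEAA samples were below both controls, by more than the samples of either group differed from each other. The log2 fold change was -0.65 (SE 0.14, 95% interval -1.04 to -0.26, limma adjusted p = 0.0931), which did not pass. Of all tested models, 9.83% had a more negative log2 fold change.

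The higher model of Nr1d2 had 4.03 and 2.90 FPKM in the NEAA samples, against 4.73 and 4.76 FPKM in the control samples. The control samples were nearly equal and the NEAA samples lay apart, the first of them nearer to control. The log2 fold change was -0.38 (SE 0.18, 95% interval -0.87 to 0.12, limma adjusted p = 0.275). The higher model held 65.9% and 63.9% of the gene's summed FPKM in the NEAA samples, against 58.3% and 57.1% in the control samples. Whether the models of Nr1d2 differed from each other in their response was not tested.

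Summed over both models, Nr1d2 averaged 5.32 ± 1.11 FPKM in NEAA and 8.22 ± 0.161 FPKM in control (SD, n = 2 each), a ratio of 0.647. In the fit on sums, over 4700 genes with a mean of at least 1 FPKM, its log2 fold change was -0.56 (SE 0.17, 95% interval -1.01 to -0.10, limma adjusted p = 0.113). No sum of a clock gene passed, 1 having an unadjusted p under 0.05, while 10.1% of all genes tested on sums were called and 30.7% had an unadjusted p under 0.05. With 2 against 2 samples the smallest p of an exact 2-sided permutation test is 0.333, the value it gave for Nr1d2. The sums of 2 of the 4 tested clock genes, Nr1d2 and Bhlhe40, had both NEAA samples below both controls, as did 34.4% of all genes tested on sums. In RNA of whole cultures, less of a transcript per cell and fewer cells that make it cannot be told apart.

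Bhlhe40 codes for a repressor that competes with CLOCK and BMAL1 at E-boxes and is also induced by many signals outside the clock. Its higher model had 4.17 and 4.27 FPKM in the NEAA samples, against 5.13 and 5.69 FPKM in the control samples. Its lower model had 0.984 and 1.41 FPKM in the NEAA samples, against 1.55 and 1.84 FPKM in the control samples. For both models the NEAA samples were below the control samples, and for the lower model the gap between the groups was smaller than the difference within either group.

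The log2 fold change was -0.30 for the higher Bhlhe40 model (95% interval -0.66 to 0.07, limma adjusted p = 0.257) and -0.30 for the lower (95% interval -0.74 to 0.14, limma adjusted p = 0.315). Without the first NEAA sample the lower model was at -0.16, and the higher model at -0.28. After rescaling each sample to the same summed FPKM, the higher model was at -0.14. The higher model held 80.9% and 75.2% of the sum in the NEAA samples, against 76.8% and 75.5% in the control samples. Summed, Bhlhe40 averaged 5.42 ± 0.370 FPKM in NEAA and 7.11 ± 0.602 FPKM in control (SD, n = 2 each), with a log2 fold change of -0.34 (95% interval -0.70 to 0.03, limma adjusted p = 0.184). The antisense gene 0610040F04Rik overlaps the start of Bhlhe40 on the other strand, and with no strand setting stated, reads there cannot be told apart.

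**Figure D2:**
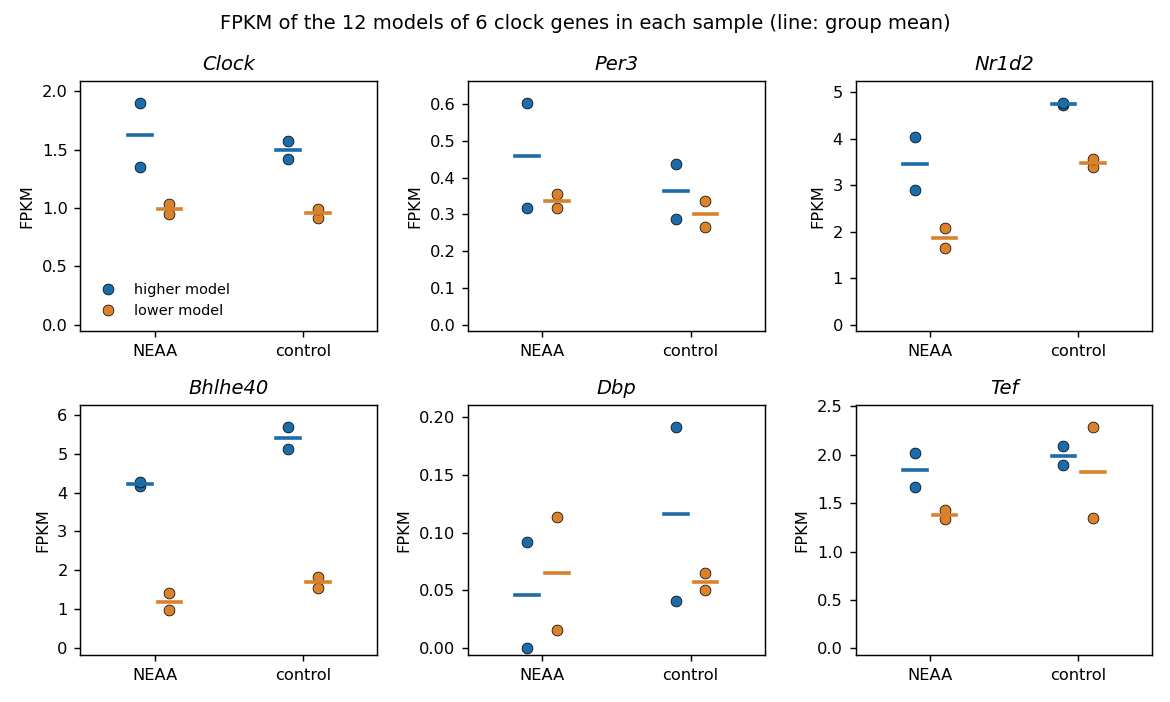
FPKM (y axis, a separate linear scale per gene) of the 2 models of each of 6 clock genes in the NEAA samples and the control samples; points are samples and lines are group means. Both models of Nr1d2 and of Bhlhe40 lie lower in NEAA, with the lower model of Nr1d2 at 2.08 and 1.64 FPKM against 3.38 and 3.57, while the groups overlap for Clock, Per3, Dbp and Tef.

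Clock codes for the activator of the loop, a histone acetyltransferase that pairs with BMAL1. Its higher model had 1.35 and 1.90 FPKM in the NEAA samples, against 1.58 and 1.42 FPKM in the control samples. The control values lay between the NEAA values, and the log2 fold change was 0.06 (SE 0.16, 95% interval -0.37 to 0.50, limma adjusted p = 0.819). The lower model, just under the level filter, had 0.952 and 1.03 FPKM in NEAA against 0.916 and 0.988 in control. The sum averaged 2.62 ± 0.444 FPKM in NEAA and 2.45 ± 0.0595 FPKM in control (SD, n = 2 each). The interval of the sum's log2 fold change, -0.32 to 0.45, leaves room for a moderate difference in either direction. Ube2n-ps1 and Gm43658 overlap Clock on the same strand, so their reads could fall on it.

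Per3 codes for a PERIOD protein, the repressor arm of the loop, and was the only Per gene with rows. Its models were below the level filter and were tested only without it. The higher model had 0.603 and 0.318 FPKM in the NEAA samples, against 0.288 and 0.439 in the control samples. The lower model had 0.319 and 0.357 FPKM in NEAA, against 0.267 and 0.336 in control. The groups overlapped for both, and without the filter their limma adjusted p-values were 0.786 and 0.860. Per3 lies within the annotated span of Camta1 on the same strand, so intronic reads of Camta1 could fall on it.

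Tef and Dbp code for the PAR bZIP factors at the output of the clock. The higher model of Tef had 2.02 and 1.67 FPKM in the NEAA samples, against 1.90 and 2.09 FPKM in the control samples. The lower model had 1.42 and 1.34 FPKM in the NEAA samples, against 2.29 and 1.35 FPKM in the control samples. The difference in the lower model's means came from the first control sample, since the second was level with NEAA. The log2 fold changes were -0.08 for the higher model (95% interval -0.44 to 0.28, limma adjusted p = 0.741) and -0.22 for the lower (95% interval -0.79 to 0.34, limma adjusted p = 0.531). Summed, Tef averaged 3.22 ± 0.309 FPKM in NEAA and 3.81 ± 0.530 FPKM in control (SD, n = 2 each), and its log2 fold change of -0.19 did not pass (limma adjusted p = 0.446). That value was -0.07 without the first control sample, -0.30 without the second and -0.02 after the same rescaling. The antisense gene Gm17597 overlaps Tef on the other strand.

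Dbp, in mouse liver known for one of the strongest daily mRNA rhythms, had models close to 0. One model had 0.0916 and 0 FPKM in the NEAA samples, against 0.0404 and 0.191 in the control samples, and the other 0.0155 and 0.114 in NEAA, against 0.0651 and 0.0502 in control. The groups overlapped for both, and the model with the larger share of the sum differed between samples of the same group. These values stand for the retained-intron models. The spliced mRNA of Dbp, as of the other clock genes with rows, was not measured by a row of its own. The 3′ part of Dbp also overlaps Sphk2 on the other strand.

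Ordered by summed FPKM, which is per length, the control samples gave Nr1d2, Bhlhe40, Tef, Clock, Per3 and Dbp, with no overlap between neighbours. In NEAA the order began with Bhlhe40, at 5.15 and 5.68 FPKM, and Nr1d2, at 6.11 and 4.54 FPKM, which did not differ beyond their spread. Tef, Clock, Per3 and Dbp followed in the same order as in control. Dbp summed to 0.107 and 0.114 FPKM in NEAA, against 0.105 and 0.242 FPKM in control. The sums of all 12 clock models made up 0.0274% and 0.0278% of the summed FPKM in the NEAA samples, against 0.0301% and 0.031% in the control samples.

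**Figure D3:**
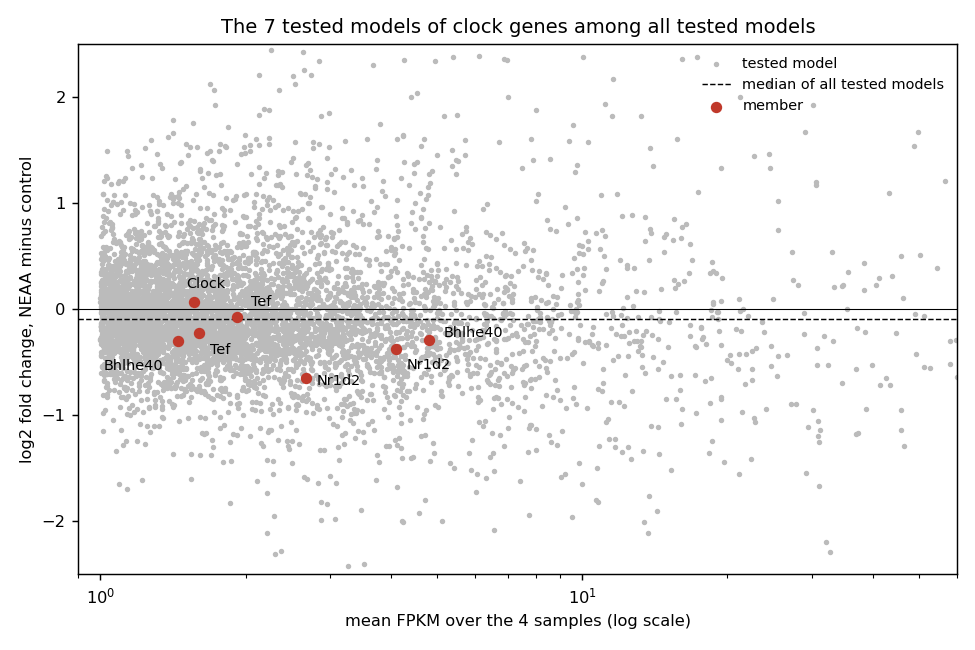
Log2 fold change (NEAA minus control, on log2(FPKM + 1)) against mean FPKM over the 4 samples (log axis) for all tested models in grey, with the 7 clock models in red; 69 models lie outside the axes. The red points lie within the cloud of grey points, from -0.65 for the lower model of Nr1d2 to 0.06 for Clock, and the dashed line is the median of all tested models at -0.09.

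The summed FPKM of all rows was 65718.5 and 60942.0 in the NEAA samples, against 73600.1 and 73376.5 in the control samples. The lncRNAs Gm26917 and Gm42418 held 49.4% and 46.1% of it in NEAA and 52.9% and 50.4% in control. After rescaling each sample to the same sum, the median log2 fold change of all tested models moved to 0.07, from -0.09 as deposited. Relative to that median, the lower model of Nr1d2 was at -0.56 as deposited and at -0.75 after rescaling, and its higher model at -0.28 and -0.32. The models of Bhlhe40 were at -0.20 and -0.21 as deposited and at -0.21 and -0.36 after rescaling. Both models of these genes thus stayed below the median of all models under this scaling, while the higher model of Tef was at 0.02 and 0.03. Rescaling was to a sum of 1000000 with 1 still added before the logarithm, so the added 1 weighed less than as deposited. With 0.1 FPKM added and no rescaling, the median log2 fold change of all tested models was -0.14. The higher and lower models were then at -0.46 and -0.88 for Nr1d2 and at -0.35 and -0.48 for Bhlhe40, before subtracting that median. The parts of scaling and of the added constant in the values after rescaling were not separated.

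Markers of liver cells were checked in the same tables. Of 17 listed hepatocyte marker symbols, 16 were in the annotation and 6 had rows (Ahsg, Ass1, Cyp2e1, Cyp3a11, Pck1 and Trf). The other 11 symbols, among them Alb, Apoa1, Ttr, Hnf4a and the symbol Tf, had no row and no annotated retained-intron transcript. The 10 models of the 6 markers with rows summed to 66.7 and 64.5 FPKM in the NEAA samples, against 26.0 and 33.0 FPKM in the control samples. A sum does not show which of the markers moved. Endothelial markers, with rows for 5 of 7 genes, summed to 1.46 and 1.16 FPKM in NEAA, against 1.32 and 0.673 in control. Macrophage markers, with rows for 2 of 8 genes, summed to 0.530 and 1.69 FPKM in NEAA, against 0.829 and 0.962 in control, and stellate cell and fibroblast markers, with rows for 5 of 8, to 1.73 and 1.38 against 1.41 and 1.24. Cholangiocyte and red blood cell markers, with rows for 2 of 6 and 4 of 5 genes, summed to at most 0.0467 FPKM in any sample. The hepatocyte marker sum moved with the groups, and its part in the lower values of Nr1d2 and Bhlhe40 was not tested.

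Other genes of the clock were taken from lists of its activators, repressors, receptors, enzymes, partners and liver outputs. Beside the members these lists held 59 genes, of which 33 had rows. Among the genes without a row were Npas2, Rora, Nfil3, Hlf, Ciart and Usp2, each without an annotated retained-intron transcript. Arntl, the gene of BMAL1, had 2 models below the level filter. They summed to 0.978 and 1.33 FPKM in the NEAA samples, against 0.887 and 0.913 FPKM in the control samples. In the fit on sums the log2 fold change of Arntl was 0.18 (95% interval -0.21 to 0.56, limma adjusted p = 0.458), which did not pass. The higher model averaged 0.909 FPKM in NEAA and 0.551 in control, and the lower 0.245 in NEAA and 0.349 in control. The models of Cry1, the partner repressor of Cry2, were at most 0.421 FPKM in any sample, and that of Bhlhe41, the paralog of Bhlhe40, at most 0.118. None of the 40 tested models of these other genes was called by limma, against 2.90% of all tested models, and 10 of the 40 (25%) had an unadjusted p under 0.05, against 25.9%. Of those 10, 6 were models of a single gene, Huwe1. The log2 fold change was negative in 30 of the 40, against 58.9% of all tested models, and their median was -0.21, against -0.09. Without the 7 models of Huwe1, 23 of 33 were negative and the median was -0.16. Of these 33, 4 (12.1%) had an unadjusted p under 0.05.

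Enzymes that modify clock proteins had 19 tested models of 11 genes, of which 7 models were of Huwe1. None of the 19 was called, against 2.90% of all tested models, and 9 had an unadjusted p under 0.05, against 25.9%. Of those 9, 6 were models of Huwe1 and the others were single models of Csnk1e, Csnk2a1 and Csnk1a1. In 13 of the 19 both NEAA samples were below both controls, against 36.0% of all tested models, and 7 of the 13 were models of Huwe1. Over the 12 models of the other 10 enzyme genes, 3 had an unadjusted p under 0.05, 6 had both NEAA samples below both controls, and the median log2 fold change was -0.26, against -0.39 over all 19. Models of a gene are not independent of each other. Csnk1e codes for a casein kinase that phosphorylates PER proteins. Its tested model averaged 1.08 ± 0.0396 FPKM in NEAA and 1.89 ± 0.236 FPKM in control (SD, n = 2 each; limma adjusted p = 0.127). A model of Csnk2a1, a catalytic subunit of casein kinase 2, had 2.71 and 2.90 FPKM in NEAA, against 4.31 and 4.21 FPKM in control (limma adjusted p = 0.124).

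The 4 smallest p-values of the enzymes all belonged to models of Huwe1, an E3 ubiquitin ligase reported to target REV-ERB alpha among many other proteins. In all 7 tested models of Huwe1 both NEAA samples were below both controls, with limma adjusted p-values from 0.0847 to 0.274. Its summed FPKM was 16.1 and 16.6 in the NEAA samples, against 35.2 and 34.2 in the control samples. Summed over its rows, Huwe1 was lower in NEAA, with a log2 fold change of -1.04 (SE 0.13, 95% interval -1.37 to -0.71, limma adjusted p = 0.0190). It was the only call among 25 other clock genes tested on sums. Of all genes tested on sums, 4.11% were called lower in NEAA and 10.1% in either direction. The call was lost when any single sample was left out (limma adjusted p from 0.0598 to 0.109), with log2 fold changes from -1.06 to -1.02. It was also lost with the replicate number as a block (log2 fold change -1.04, limma adjusted p = 0.0583).

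Partners of the PER complex and of the REV-ERBs had 15 tested models of 8 genes. Their median log2 fold change was -0.09, against -0.09 over all tested models. None was called, against 2.90% of all tested models, and 1 had an unadjusted p under 0.05, against 25.9%. That 1 was a model of Hdac3, the histone deacetylase through which the REV-ERBs repress. This model had 1.33 and 0.743 FPKM in the NEAA samples, against 3.74 and 1.93 FPKM in the control samples (limma adjusted p = 0.182). The other models of Hdac3, below the level filter, averaged higher in NEAA, at 0.92 and 0.657 FPKM against 0.656 and 0.36 FPKM in control. Summed, Hdac3 had 2.81 and 2.41 FPKM in NEAA, against 5.15 and 2.55 FPKM in control. The groups of this sum overlapped, with a log2 fold change of -0.37 (limma adjusted p = 0.431). Nono, whose protein binds PER and is also a paraspeckle component, had 4 tested models with log2 fold changes from -0.34 to 0.22. Its sum was 7.86 and 9.05 FPKM in NEAA, against 8.31 and 8.65 FPKM in control, and the groups overlapped.

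Rhythmic liver outputs had 5 tested models of 3 genes, Por, Insig2 and Alas1. Their median log2 fold change was 0.31, against -0.09 over all tested models, and 1 of the 5 was negative, against 58.9%. In 3 of the 5 both NEAA samples were above both controls, which held for 22.8% of all tested models. None of the 5 was called, against 2.90% of all tested models, and none had an unadjusted p under 0.05, against 25.9%. A model of Insig2, a REV-ERB target that holds back SREBP processing, had 1.76 and 2.03 FPKM in the NEAA samples, against 1.40 and 0.791 FPKM in the control samples (limma adjusted p = 0.221). Por, the electron donor of cytochromes P450 and a target of PAR bZIP factors, summed to 4.46 and 4.80 FPKM in NEAA, against 2.28 and 2.73 FPKM in control. Its log2 fold change on the sum was 0.69 (SE 0.14, 95% interval 0.33 to 1.05), just short of a call (limma adjusted p = 0.0503). Alas1, the first enzyme of haem synthesis, had a model at 0.0927 and 10.1 FPKM in the NEAA samples, against 8.11 and 7.73 FPKM in the control samples, so the NEAA samples disagreed with each other.

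**Figure D4:**
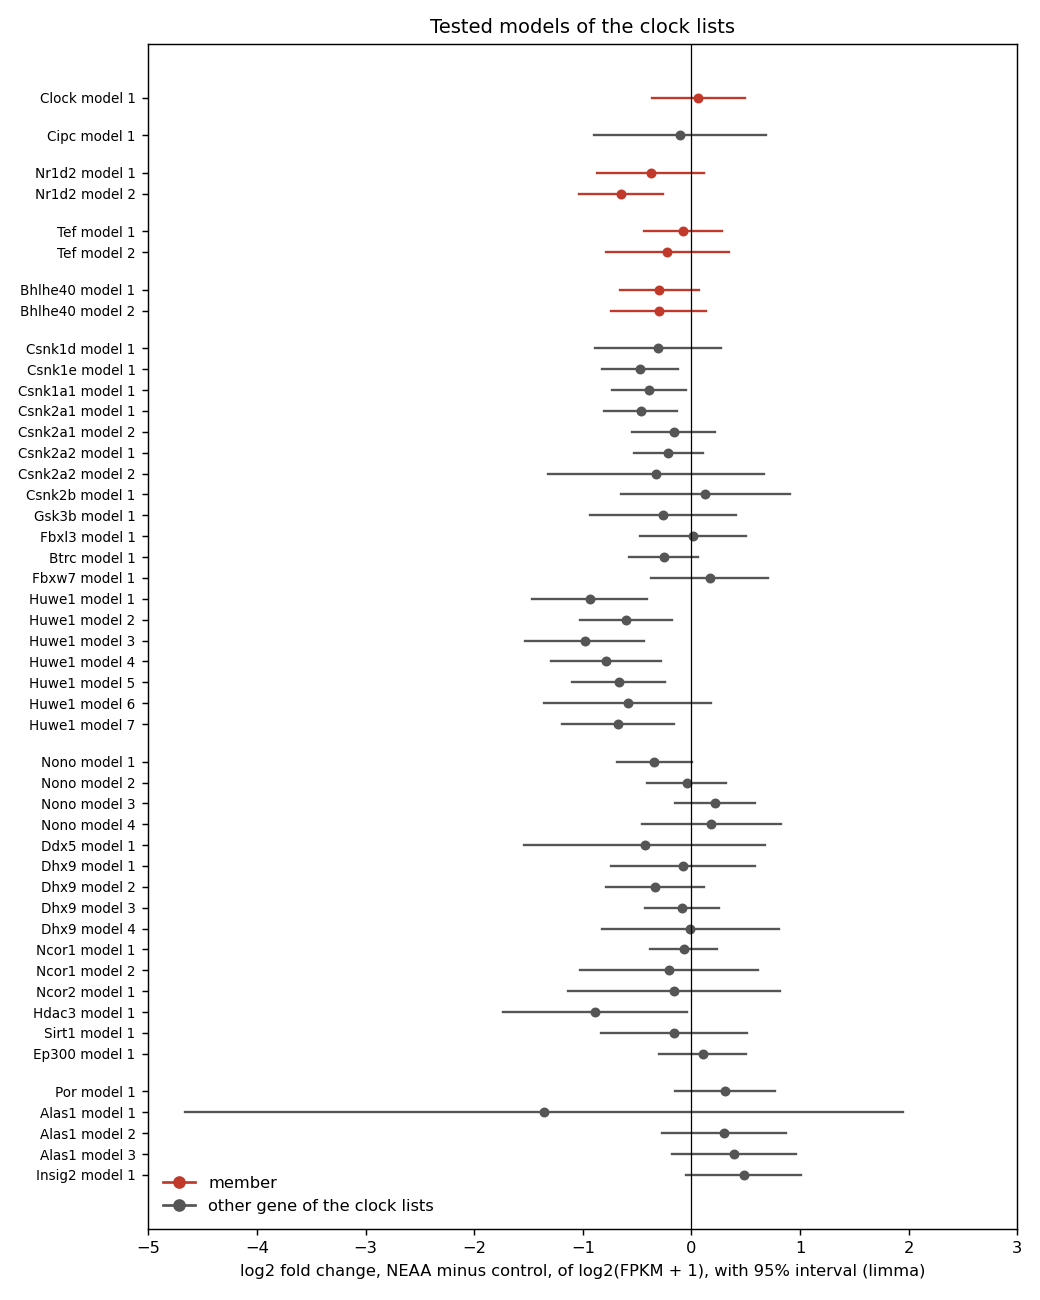
Log2 fold change (x axis, NEAA minus control, on log2(FPKM + 1)) with its 95% interval from limma for the 47 tested models of the clock lists; red marks the 7 models of the genes described here and grey the other genes. Models are numbered within a gene from the highest mean level; the intervals that lie wholly below 0 are those of the second model of Nr1d2, of 6 of the 7 models of Huwe1 and of the first models of Csnk1e, Csnk1a1, Csnk2a1 and Hdac3, 11 in all, and 0 lie wholly above 0.

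Promoter windows of the members were searched for clock motifs in RefSeq sequence (GRCm38.p6, from 250 bases before to 50 bases after each start). The motifs, sought on both strands, were the E-box CACGTG, its variant CACGTT, the D-box TTATGNAA and the REV-ERB and ROR elements TAGGTCA and TGGGTCA. Over 32851 windows of all genes they were present in 7.15%, 4.68%, 3.38%, 2.61% and 3.98%. Both windows of Tef held 1 CACGTG each. The window of Per3 held 2 matches of TTATGNAA, and 1 of the windows of Per1 held 1 CACGTG and 1 TTATGNAA. The windows of Cry2 and Nr1d1 held 1 CACGTT each. None of the motifs was found in the windows of Nr1d2, Dbp or Clock, and no window of Per2 or Bhlhe40 was used. A match is a description of these letters and not a measured binding site.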

How the data were processed

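The authors deposited a table per sample with FPKM values, a unit named only in the file names. Per the labels' protocols, total RNA was extracted with Trizol and libraries were made with the NEBNext Ultra RNA kit. The submitters' processing notes name the builds GRCm38 and mm10, which are the same assembly. The sources used here do not give the aligner, estimator, annotation release, strand setting or filters. Without counts the depth is unknown, so no counting intervals are given. FPKM are relative within a library.

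Rows were joined by position and identifier, and symbols came from GENCODE M21. Models averaging 1 FPKM or more were fitted on group as log2(FPKM + 1), using limma 3.58.1 (R 4.3.3) (eBayes with a mean trend), 2-sided, with Benjamini-Hochberg adjustment over all 6064 models. The same fit was made on FPKM summed per gene. Fold changes on this scale understate those of low models. The fit was tested on simulated data.

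All members were described, every tested model in full. From each list, called models and up to 4 models of smallest p were named. Other genes, such as those without a row or of low level, were named after their values were seen. The members and lists were chosen with earlier results of these data known. Alternatives were other pseudocounts, filters, scalings and variance settings, leaving out each sample, and a block on the replicate number.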

Additional observations from a re-analysis of the deposited data

How the results depend on the processing

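None of the 7 tested clock models, the 4 summed clock genes or the other models of the clock lists passed in any of the 15 alternatives by limma, with 0 to 2 clock models at an unadjusted p under 0.05. Both models of Nr1d2 and of Bhlhe40 had a negative log2 fold change in each alternative that could be fitted. For the lower Nr1d2 model it was between -0.88 and -0.54 (limma adjusted p from 0.0950 to 0.281), and for the higher model it was -0.19 without NEAA replicate 2. The lower Bhlhe40 model was at -0.16 without NEAA replicate 1, -0.44 without NEAA replicate 2 and -0.48 at a pseudocount of 0.1 FPKM, and the higher at -0.14 and the sum at -0.17 after rescaling. Leaving out a sample gave -0.0858 to 0.215 for the Clock model and -0.0621 to 0.189 for its sum, the lowest without NEAA replicate 2. It gave -0.164 to 0.0131 for the higher Tef model, the highest without NEAA replicate 2, and -0.467 to 0.0191 for the lower, the highest without control replicate 1. After rescaling to a sum of 1000000 the higher Tef model was at 0.0955. The median of the clock models was -0.183 after quantile normalization and -0.139 after rescaling. At a filter of 5 FPKM no clock model was left to test.

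Over all models, 118 were called higher and 58 lower in NEAA, and 46 higher and 54 lower at 5 FPKM. Without the filter 0 and 0 were called by limma, with 4000 models at an unadjusted p under 0.05. After rescaling 90 were higher and 20 lower, and rescaling without Gm26917 and Gm42418 gave 78 higher and 26 lower. Leaving out a sample gave 0 in both directions, with 1076 to 1248 models at an unadjusted p under 0.05. On sums, 282 genes were called higher and 193 lower. The counts were 73 and 80 at 5 FPKM and 181 and 63 without the filter. After rescaling 390 were higher and 86 lower, or 303 and 127 without Gm26917 and Gm42418. Leaving out a sample gave 0 to 64 higher and 0 to 27 lower, the fewest without control replicate 1 or 2.

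With the replicate number as a block, 0 models were called in either direction, with 1323 at an unadjusted p under 0.05, and on sums 139 genes were called higher and 46 lower. Huwe1 did not pass there (limma adjusted p = 0.0583). Same-numbered samples deviated from their group means with a correlation of -0.00192 over the tested models, and the labels name no shared animal or day, so the samples were not paired. The cause of these differences was not tested. The number of samples and the unknown depth limit the precision of each value.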
